A study of Mus musculus with 16 samples.

Results

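The nuclear genes for the 5 complexes of oxidative phosphorylation were followed in the seminal vesicle (SV), the androgen-dependent gland that secretes much of the seminal fluid, at week 5. Genes were taken by symbol (Nduf a, b, c, s or v followed by a number; Sdha to Sdhd; Uqcr; Cox4 to Cox8; Atp5) when their mean FPKM exceeded 1 in at least 1 group. Of 31274 genes in the expression table, 84 symbols matched and 82 passed, all of which were among the 15988 genes tested. The symbols that did not pass were *Cox7b2* and *Cox8c*, whose highest group means were 0.050 and 0.128 FPKM, while the lowest that passed, *Cox4i2* and *Atp5s*, had highest group means of 10.0 and 11.4 FPKM. The 82 genes comprised 35 of complex I, 4 of complex II, 8 of complex III, 18 of complex IV (with *Ndufa4* and *Ndufa4l2* set there) and 15 of complex V. The other 2, *Atp5s* and *Atp5sl*, match by symbol but do not encode a subunit of the enzyme.

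RNA-seq had been performed on SVs of C57BL/6 mice in 4 groups of 4 samples. Wild-type (WT) pups and pups lacking oestrogen receptor α through a disrupted *Esr1* gene (αERKO) were injected subcutaneously on days 1 to 5 with diethylstilboestrol (DES), a synthetic oestrogen, at 2 µg per pup per day, or with corn oil alone. The 2 WT groups are written WT-veh and WT-DES, and the 2 knockout groups αERKO-veh and αERKO-DES. The knockout was global, the αERKO mice were bred from heterozygotes, SVs were dissected away from the anterior prostate, and the extraction notes give individual mice for 3 groups but 3 pools of mice for WT-DES, so what each of the 4 WT-DES samples held is not known.

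Oxidative phosphorylation takes place at the inner mitochondrial membrane. Complex I takes electrons from NADH and complex II from succinate, complex III hands them to cytochrome c and complex IV to oxygen, while complexes I, III and IV pump protons and complex V, the ATP synthase, uses the proton gradient to make ATP. Most subunits are encoded in the nucleus and many are small proteins with short mRNAs, and their promoters are known for sites of nuclear respiratory factor 1, ETS factors such as GABP, and YY1.

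Promoter windows from RefSeq (GRCm38.p6, 250 bases before to 50 after the annotated start) were available for 68 of the 82 genes. The first 4 below belong to genes with large falls in WT-DES, and the last pair to complex II genes of which one fell and one was not called. Each window spans the gene's start of transcription in that annotation. Capitals mark the words searched on both strands: GCGCATGC or GCATGCGC (nuclear respiratory factor 1), CCGGAAGT or ACTTCCGG (ETS), AAGATGGC or GCCATCTT (YY1) and TCAAGGTCA or TGACCTTGA (oestrogen-related receptors). Windows without capitals held none of these words.
Ndufa1 (chrX:37191189-37191488, minus strand): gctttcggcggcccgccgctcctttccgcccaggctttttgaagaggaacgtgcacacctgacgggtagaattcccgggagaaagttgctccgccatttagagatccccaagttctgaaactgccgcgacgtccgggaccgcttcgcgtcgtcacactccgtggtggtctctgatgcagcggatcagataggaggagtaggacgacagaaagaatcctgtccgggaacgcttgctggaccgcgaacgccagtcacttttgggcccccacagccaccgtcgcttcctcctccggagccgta
Atp5g1 (chr11:96075582-96075881, minus strand): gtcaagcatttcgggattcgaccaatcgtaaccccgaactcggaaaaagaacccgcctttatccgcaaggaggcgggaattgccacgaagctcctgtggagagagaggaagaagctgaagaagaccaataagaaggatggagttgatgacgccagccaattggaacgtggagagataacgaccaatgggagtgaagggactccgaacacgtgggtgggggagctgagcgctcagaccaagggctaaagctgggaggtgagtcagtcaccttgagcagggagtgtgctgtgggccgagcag
Uqcr11 (chr10:80406772-80407071, minus strand): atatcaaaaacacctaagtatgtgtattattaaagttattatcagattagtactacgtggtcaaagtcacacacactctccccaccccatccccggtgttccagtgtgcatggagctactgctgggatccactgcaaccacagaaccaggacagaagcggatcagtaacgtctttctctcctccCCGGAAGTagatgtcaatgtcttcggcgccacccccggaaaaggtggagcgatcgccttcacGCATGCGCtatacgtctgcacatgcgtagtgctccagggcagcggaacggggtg
Ndufs6 (chr13:73328433-73328732, minus strand): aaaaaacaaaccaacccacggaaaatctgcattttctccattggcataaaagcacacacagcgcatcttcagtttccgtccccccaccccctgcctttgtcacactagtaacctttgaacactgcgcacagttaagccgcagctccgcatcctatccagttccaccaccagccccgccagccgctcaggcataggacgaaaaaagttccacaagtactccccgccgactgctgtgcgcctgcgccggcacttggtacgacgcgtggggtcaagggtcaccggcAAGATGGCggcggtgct
Sdha (chr13:74350191-74350490, minus strand): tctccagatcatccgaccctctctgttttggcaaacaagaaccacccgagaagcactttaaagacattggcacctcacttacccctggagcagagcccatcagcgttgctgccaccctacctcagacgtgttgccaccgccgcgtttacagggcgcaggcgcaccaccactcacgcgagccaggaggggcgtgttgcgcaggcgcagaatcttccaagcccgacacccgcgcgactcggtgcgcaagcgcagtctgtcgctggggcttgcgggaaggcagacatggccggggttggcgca
Sdhb (chr4:140961021-140961320, plus strand): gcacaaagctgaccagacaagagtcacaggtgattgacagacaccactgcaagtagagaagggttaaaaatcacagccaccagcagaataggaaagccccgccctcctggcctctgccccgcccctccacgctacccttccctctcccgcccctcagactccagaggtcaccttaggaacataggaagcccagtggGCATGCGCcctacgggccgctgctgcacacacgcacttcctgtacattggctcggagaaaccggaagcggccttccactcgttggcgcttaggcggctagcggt

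The word for nuclear respiratory factor 1 was found for 10 of the 68 genes (14.7%) and for 5.43% of 11173 tested genes. The YY1 word was found for 11 genes (16.2%) against 4.64%, and the ETS word for 5 (7.35%) against 7.96%. The oestrogen-related receptor word was found for 2 (2.94%), *Atp5g3* and *Sdhd*, against 0.304%. At least 1 of the first 3 words was found for 25 genes (36.8%) against 16.7% of the tested genes. Genes with and without a word differed little in their median log2 difference between WT-DES and WT-veh, which was -0.90 with and -0.96 without the nuclear respiratory factor 1 word, -1.01 and -0.95 for ETS, and -1.0 and -0.95 for YY1. A match is a description of the letters only.

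The genes were highly expressed. FPKM counts fragments per kilobase of transcript, scaled to the sequenced fragments of the sample, so levels of genes of different length can be set side by side. In WT-veh the subunit of highest mean in each complex was *Ndufa3* at 494 FPKM, *Sdhb* at 173, *Uqcrq* at 599, *Cox4i1* at 764 and *Atp5e* at 810. The lowest were *Ndufb4* at 13.1, *Sdha* at 104, *Uqcrb* at 66.9, *Cox6a2* at 9.17 and *Atp5l* at 35.3. Some subunits that their complex needs were listed at low values. Of 10 subunits without a tissue isoform under 60 FPKM, a limit set after seeing the values, 9 had a copy of at least 90% identity over 200 bases elsewhere in the genome, against 23 of 64 at or above that level. Over all 82 genes the median level in WT-veh was alike, at 157 FPKM with a copy and 160 without. How reads from such copies were assigned is not stated, so the levels of the 32 genes with a copy are uncertain. All 32 of them were nevertheless down-regulated in WT-DES, with a median difference of -1.0, and so were 43 of the 50 without one, with a median of -0.87.

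*Esr1* was checked first, as the gene disrupted in αERKO. It was at 2.81 to 4.55 FPKM in the WT-veh samples and 8.74 to 19.6 in the WT-DES samples, against 1.30 to 1.75 and 0.91 to 1.64 in the αERKO groups without and with DES, so that all 8 αERKO samples lay below all 8 WT samples. The remaining signal was not resolved by exon. Secretory genes of the gland (8 listed) summed to 49597 to 57994 FPKM in WT-veh and 2436 to 7951 in WT-DES. Total FPKM averaged 613782 and 410956 in the WT groups without and with DES, and 521835 and 580238 in the αERKO groups. Depth is unknown, as no counts were used here.

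The question of the main comparison was what neonatal DES left behind in the pubertal SV. In WT-DES the oxidative phosphorylation genes were lower almost throughout. Of the 82 genes, 75 were down-regulated, 1 was up-regulated and 6 were not called (limma on log2(FPKM + 1), Benjamini-Hochberg adjusted p of at most 0.05 over all genes). Among all genes tested, 37.3% were called lower and 36.4% higher. The median difference of the 82 genes was -0.95 on the log2 scale, against -0.01 for all genes. By the criteria for differentially expressed genes (DEGs: called, and group means at least 1.5-fold apart) 69 qualified, 68 of them lower, against 52.7% of all genes. In 72 genes every WT-DES sample was below every WT-veh sample, and in 1 every WT-DES sample was above. The same count was not made for all genes, so it has no background share.

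**Figure D1:**
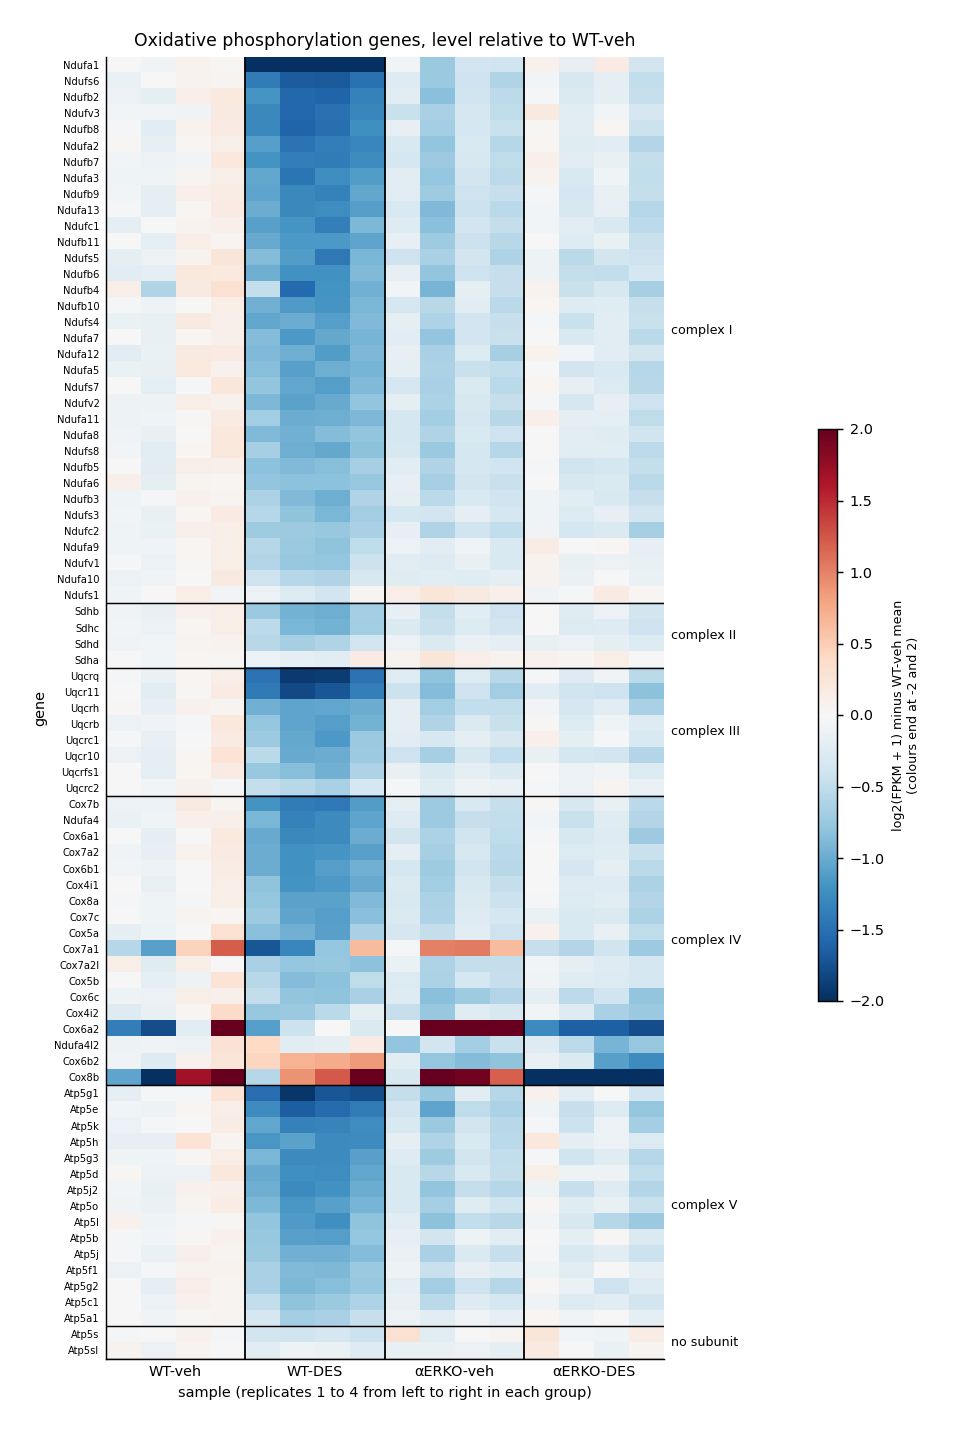
Each row is 1 of 81 of the 82 genes, ordered by complex, and each column 1 of the 16 samples. Colour is log2(FPKM + 1) minus the mean of WT-veh, with the colours ending at -2 and 2. The 4 WT-DES columns are blue in nearly every row, the αERKO-veh columns are pale blue, and *Cox7a1*, *Cox6a2* and *Cox8b* vary between samples of 1 group. Under at least 1 alternative processing, 14 of the 76 genes called in WT-DES changed sign.

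The summed FPKM of the 82 genes was 17766 ± 1450 in WT-veh (SD, n = 4) and 8621 ± 845 with DES, and in αERKO it was 13369 ± 1496 with vehicle and 15060 ± 2098 with DES. As a share of each sample's total FPKM this was 2.89 ± 0.13%, 2.10 ± 0.21%, 2.56 ± 0.13% and 2.59 ± 0.19% in the same order. The distance between the WT groups was thus smaller when set against the total, which itself was lower in WT-DES. In bulk tissue, fewer cells of a type and less RNA per cell cannot be told apart.

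How the samples were scaled moved the size of the difference. The table's values were used as they stood. Rescaling to equal totals without the 20 most abundant genes put the median of all genes at 0.37 and gave 67 of the 82 genes lower (20.7% of all genes), with a median of -0.52, or -0.88 relative to all genes. Rescaling to equal totals, an alternative chosen after seeing the data, put the median of all genes at 0.49 and gave 58 lower against 2556 of all 15988 genes (median -0.37, or -0.86 relative to all genes). Median-ratio scaling put the median of all genes at 0.12 and gave 74 lower (31.5% of all genes), and quantile normalization gave 53 lower (37.9%) with a median of -0.30. Among all calls in this comparison, 49.4% were up-regulated as the table stood, against 72.4% and 79.0% under the first 2 of these rescalings. Those of the 82 genes named below as down-regulated in WT-DES stayed lower under every scaling unless stated otherwise.

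Complex I, the NADH dehydrogenase, had 34 of 35 genes down-regulated, with a median of -0.99 and a range from -2.25 to -0.18. *Ndufa1*, a small membrane-bound accessory subunit needed for assembly of the complex, showed the largest fall of all 82 genes. Its gene lies at X:37187588-37191163 on the minus strand (GRCm38, ENSMUSG00000016427.7). *Ndufa1* was at 397.24, 380.70, 420.43 and 406.03 FPKM in WT-veh and at 89.81, 71.77, 81.32 and 91.45 in WT-DES. It was at 384.28, 238.06, 308.49 and 304.19 in αERKO-veh and at 424.69, 357.40, 451.60 and 312.13 in αERKO-DES. The WT-DES samples thus stood apart from the other 12. The difference was -2.25 (SE 0.14, limma with Benjamini-Hochberg, adjusted p = 4.07e-09), which left 20.8% of the WT-veh mean.

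*Ndufs6*, a zinc-binding subunit added late in assembly and chosen here after its values were seen, was at 88.99, 98.24, 103.11 and 102.27 FPKM in WT-veh and at 36.43, 30.28, 29.87 and 34.05 in WT-DES. The groups did not overlap, and WT-DES held 33.3% of the WT-veh mean (-1.56, SE 0.11, limma adjusted p = 1.58e-08). *Ndufa3*, the complex I gene of highest level in WT-veh, fell by 1.21 on the log2 scale (SE 0.14, limma adjusted p = 1.79e-06).

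The 7 core subunits of complex I encoded in the nucleus, which carry the flavin and the iron-sulphur clusters of the electron path, changed less than the accessory subunits. Of the 7 core genes 6 were down-regulated, with a median of -0.75. All 28 other genes of the complex were down-regulated, with a median of -1.06. Within the core, *Ndufs7* and *Ndufv2* fell by 0.95 and 0.94, *Ndufs8* by 0.87, *Ndufs3* by 0.75 and *Ndufv1* by 0.64. *Ndufs1*, the largest subunit of the complex, was at 37.51, 40.25, 43.63 and 38.46 FPKM in WT-veh and at 36.74, 32.70, 30.40 and 41.62 in WT-DES. These overlapped, and the difference of -0.18 (SE 0.09) was not called (limma adjusted p = 0.0728).

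Complex II, the succinate dehydrogenase that also serves the TCA cycle, had 3 of 4 genes down-regulated and the smallest median difference of the 5 complexes, -0.66. *Sdhb*, its iron-sulphur subunit, was at 163.68, 155.92, 182.99 and 188.20 FPKM in WT-veh and at 102.99, 88.49, 87.13 and 106.66 in WT-DES. Every WT-DES sample was below every WT-veh sample, at 55.8% of the mean (-0.84, SE 0.10, limma adjusted p = 3.23e-06). The membrane anchors *Sdhc* and *Sdhd* fell by 0.77 and 0.55, the latter with a sign that turned under 2 alternatives, the highest giving 0.09. *Sdha*, the flavoprotein that binds succinate, was at 103.03, 99.72, 107.10 and 105.35 FPKM in WT-veh and at 95.90, 91.85, 88.50 and 116.62 in WT-DES. WT-DES replicate 4 was the highest of these 8 values and the other 3 WT-DES samples the lowest, and no difference was called (-0.09, SE 0.08, limma adjusted p = 0.318).

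All 8 genes of complex III, the cytochrome bc1 complex, were down-regulated, with a median of -0.94. *Uqcrq*, a small subunit bound near cytochrome b, was at 586.61, 546.25, 614.59 and 649.82 FPKM in WT-veh and at 214.75, 158.75, 159.01 and 214.95 in WT-DES. WT-DES held 31.2% of the WT-veh mean (-1.69, SE 0.15, limma adjusted p = 1.47e-07). *Uqcr11*, another small subunit and one whose promoter window held both an ETS and a nuclear respiratory factor 1 word, fell to 33.5% (-1.57, SE 0.14, limma adjusted p = 1.77e-07). The groups did not overlap in either gene. Not all small subunits fell as far, as *Uqcr10*, named here after its values were seen, fell by 0.81. Among the larger subunits *Uqcrc1* fell by 0.91, the Rieske iron-sulphur protein *Uqcrfs1* by 0.79, and *Uqcrc2* by 0.51 with a sign that turned in 2 alternatives, to 0.11 at most.

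**Figure D2:**
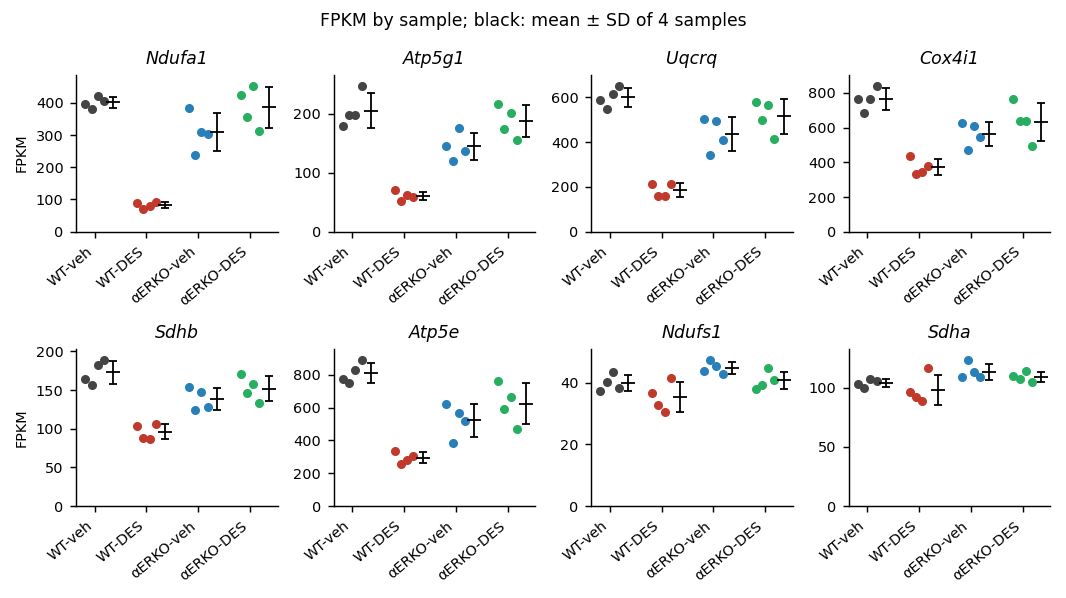
FPKM (y axis) of 8 genes in each of the 16 samples by group (x axis, replicates 1 to 4 from left to right), with the mean and SD of 4 samples in black. *Ndufa1*, *Atp5g1*, *Uqcrq*, *Cox4i1*, *Sdhb* and *Atp5e* are lower in all WT-DES samples than in all WT-veh samples, while *Ndufs1* and *Sdha* overlap.

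Complex V had all 15 genes down-regulated, with a median of -1.02. *Atp5g1*, 1 of 3 genes for the same c subunit of the membrane ring and one with 4 near-identical copies elsewhere, was at 178.60, 197.65, 198.25 and 246.84 FPKM in WT-veh and at 70.01, 52.14, 61.50 and 58.71 in WT-DES. WT-DES was at 29.5% of WT-veh (-1.74, SE 0.14, limma adjusted p = 3.85e-08). *Atp5e*, the ε subunit and the most abundant transcript of the 82 in WT-veh, was at 750.72 to 887.66 FPKM in WT-veh and 258.30 to 336.89 in WT-DES (-1.46, SE 0.16, limma adjusted p = 1.2e-06). Both genes separated the groups completely. The catalytic β subunit *Atp5b* was at 579.73 to 637.50 and 280.91 to 356.34 FPKM, a fall of 0.93 (SE 0.11, limma adjusted p = 1.86e-06). *Atp5c1*, the γ subunit of the rotor, fell by 0.67 and *Atp5a1*, the α subunit, by 0.54. After quantile normalization or other scaling *Atp5b*, *Atp5c1* and *Atp5a1* turned to as much as 0.03, 0.08 and 0.38.

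Complex IV, cytochrome c oxidase, was the most mixed, with 13 genes down-regulated, 1 up-regulated and 4 not called of 18. Its widely expressed subunits followed the other complexes. *Cox4i1*, the largest nuclear subunit, was at 765.30, 685.31, 768.07 and 839.26 FPKM in WT-veh and at 436.59, 331.78, 342.41 and 380.27 in WT-DES, without overlap. It was down-regulated to 48.8% of the WT-veh mean (-1.04, SE 0.14, limma adjusted p = 8.76e-06). *Cox5a* and *Cox5b*, which lie on the matrix side, fell by 0.88 and 0.69.

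The exceptions in complex IV were isoforms of restricted expression. *Cox6b2*, the isoform first known from testis, was at 15.63, 13.51, 17.48 and 19.72 FPKM in WT-veh and at 22.53, 27.34, 28.18 and 30.48 in WT-DES. It was the only one of the 82 genes called higher, with every WT-DES sample above every WT-veh sample (1.64-fold; 0.68, SE 0.22, limma adjusted p = 0.0124). *Cox4i2*, an isoform induced by low oxygen in lung, fell by 0.56 (SE 0.18, limma adjusted p = 0.0127), with a highest value of 0.04 over the alternatives. *Ndufa4l2*, related to *Ndufa4* and a target of hypoxia-inducible factor, was at 10.76 to 14.52 and 10.01 to 15.82 FPKM and was not called (0.04, SE 0.16). The heart and muscle isoforms *Cox6a2*, *Cox7a1* and *Cox8b* were not called either and are described with the muscle markers below.

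The falls that held most widely were those of *Ndufa1*, *Atp5g1*, *Ndufs6*, *Uqcrq*, *Uqcr11*, *Ndufb2*, *Cox7b*, *Ndufv3* and *Ndufb8*, of which *Ndufs6*, *Ndufb2*, *Cox7b*, *Ndufv3* and *Ndufb8* were picked out after their values were seen. In these 9 the difference was at least 1.5-fold downward under all 14 alternatives other than leaving out a sample. *Ndufa1* ranged from -2.29 to -1.46 over them and *Atp5g1* from -1.91 to -1.12. Of the 76 genes called, 49 kept their call and direction in all 14 alternatives.

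Transcript length bears on these values because differences between groups followed length across the whole transcriptome. The principal transcripts of the 82 genes (GENCODE M21) had a median length of 772.5 nt (360 to 3171), against 2832.75 nt for all tested genes. Medians were 870.5 nt for complex I, 2065.5 for complex II, 755 for complex III, 631.5 for complex IV and 742 for complex V. Complex II, with the longest transcripts, had the smallest median fall, but complex IV, with the shortest, had the next smallest (-0.84). Core genes of complex I had a median of 1623 nt and its other genes 747.5 nt.

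Genes under 1000 nt were lower in WT-DES generally. Of all 1085 tested genes of that length 638 were called lower, with a median of -0.65, against 4780 of 13349 longer genes with a median of 0.04. Among the oxidative phosphorylation genes, 47 of 52 under 1000 nt were lower with a median of -1.02, and 28 of 30 longer ones with a median of -0.78. In the bin of 500 to 1000 nt the 45 genes had a median of -1.01 and all 949 tested genes -0.63. In the next bins, 1000 to 2000 and 2000 to 4000 nt, the pathway's medians were -0.80 and -0.51 and those of all genes -0.29 and -0.02.

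**Figure D3:**
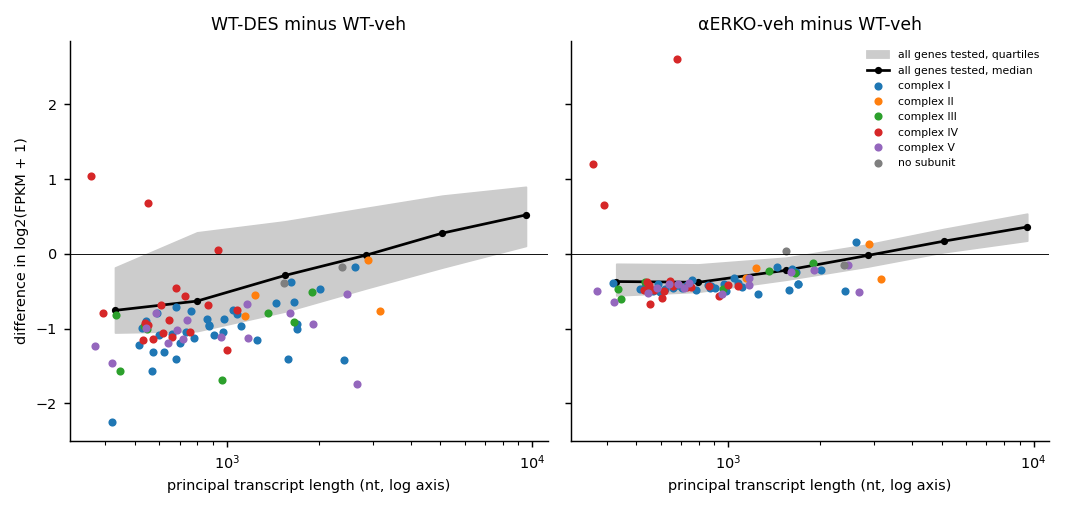
Log2 difference of each of the 82 genes (points, coloured by complex) against the length of its principal transcript in nt (log axis), for WT-DES minus WT-veh and αERKO-veh minus WT-veh. The black line and grey band are the median and quartiles of all tested genes in bins of length holding at least 100 genes. In WT-DES most points lie below the line, and in αERKO-veh they lie closer to it, with medians below it in each of the bins given in the text.

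When each sample's trend on length was subtracted, 69 of the 82 genes were called lower in WT-DES and 2 higher, with a median of -0.48, against 37.8% of all genes lower and a median of -0.02. The corrected medians were -0.52 for complex I, -0.30 for complex II, -0.45 for complex III, -0.34 for complex IV and -0.67 for complex V. Core and other genes of complex I then had medians of -0.37 and -0.60. With the length of the principal transcript in place of the longest, an alternative chosen after seeing the data, 65 were lower (38.3% of all genes) and the median was -0.41, and complex IV had the smallest median (-0.23, against -0.29 for complex II). The medians of core and other genes of complex I were then closer, at -0.38 and -0.51.

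WT-DES also differed in its cell type markers. The prostate genes *Pbsn* and *Tgm4* were down-regulated, with differences of -5.46 and -5.41. *Pbsn* was at 2009.93 to 2179.35 FPKM in WT-veh and 10.63 to 165.51 in WT-DES, and *Tgm4* at 1452.69 to 1856.03 and 6.62 to 152.33. In the 8 αERKO samples *Pbsn* was at 1546.85 to 2264.98 FPKM and *Tgm4* at 1516.08 to 2255.61. Fibroblast markers were up-regulated in 6 of 6, with sums of 731 to 881 FPKM in WT-veh and 1916 to 2091 in WT-DES. Leukocyte markers were up-regulated in 11 of 11 (sums 81.5 to 144, and 414 to 622). Epithelial markers were down-regulated in 6 of 7 and up-regulated in 1 (sums 1842 to 2067, and 922 to 1108), and smooth muscle markers down-regulated in 4 of 5. The smooth muscle sums were 2771 to 3433 FPKM in WT-veh and 748 to 1174 in 3 WT-DES samples, while WT-DES replicate 1, at 3165, lay within the WT-veh range. After quantile normalization 2 epithelial and no smooth muscle markers were lower. Their part in the fall of the oxidative phosphorylation genes was not tested.

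In the absence of ERα and of DES, the comparison of αERKO-veh with WT-veh asked what the receptor contributes during puberty. The oxidative phosphorylation genes were lower here too, by less: 63 of 82 were down-regulated and none up-regulated, with a median of -0.42 against -0.02 for all genes. At an unadjusted p under 0.05 (limma), 73 of the 82 genes passed, against 6222 of all 15988 genes. The highest difference was that of *Cox6a2* (2.61, SE 0.96, limma adjusted p = 0.0575), with overlapping groups. Of all genes tested 15.2% were called lower and 10.8% higher. Only 5 genes were DEGs (*Atp5e*, *Uqcr11*, *Cox6b2*, *Ndufa4l2* and *Cox6c*), all lower, against 7.12% of all genes. In 60 genes no αERKO-veh sample reached the lowest WT-veh sample, a count that was not made for all genes.

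Down-regulation covered 30 of 35 genes of complex I, 2 of 4 of complex II, 5 of 8 of complex III, 13 of 18 of complex IV and 13 of 15 of complex V. *Atp5e* was at 622.20, 386.88, 568.92 and 518.34 FPKM in αERKO-veh, all below the 750.72 of the lowest WT-veh sample (-0.65, SE 0.16, limma adjusted p = 0.0131). *Uqcr11* fell by 0.60 (SE 0.14, limma adjusted p = 0.0112), *Cox6b2* by 0.66 (SE 0.22, limma adjusted p = 0.0407) and *Ndufa4l2* by 0.57 (SE 0.16, limma adjusted p = 0.0221). *Ndufa1*, at 238.06 to 384.28 FPKM, fell by 0.40 (SE 0.14, limma adjusted p = 0.0483), but was higher by as much as 0.07 with the length trend or scaling changed. The smallest falls called were those of *Ndufv1* and *Atp5f1* at -0.24 and *Ndufs3* at -0.32. *Sdha* was again apart, with all αERKO-veh samples (108.68 to 122.92 FPKM) above all WT-veh samples, though the difference of 0.13 was not called.

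These calls changed with the samples used and with the length correction. Leaving out 1 sample gave 17 genes lower without WT-veh replicate 4, 26 without WT-veh replicate 3, 10 without αERKO-veh replicate 2 and 36 without αERKO-veh replicate 4, when 7.99%, 8.19%, 5.85% and 10.0% of all genes were called lower. αERKO-veh replicate 2 was the lowest of its group, with a median of -0.65 over the 82 genes relative to WT-veh, where the others were at -0.22, -0.31 and -0.46. Its relation of level, relative to the mean of all samples, to transcript length was the most positive of the 16, a Spearman rho of 0.467 across 14434 genes, which are not independent replicates. The most negative was that of WT-veh replicate 4, at -0.548. With each sample's length trend subtracted, 10 genes were called lower (6.69% of all genes in that fit), with a median of -0.09. In the bins of 500 to 1000, 1000 to 2000 and 2000 to 4000 nt the pathway's genes had medians of -0.46, -0.32 and -0.18, and all genes -0.38, -0.22 and -0.02. Without the 4 samples of highest skeletal muscle marker level (3 of αERKO-veh and 1 of WT-veh), an alternative that leaves 1 αERKO-veh sample and assumes it to vary like the other groups, none of the 82 genes and only 4 of all 15988 were called, so the calls cannot be compared. The median of the 82 genes was then -0.18, against -0.02 for all genes.

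Within αERKO mice, few of these genes were called after DES. Of the 82 none was up-regulated and 2 were down-regulated, *Cox8b* and *Cox6a2*, both of them DEGs. Among all genes 1.33% were called higher, 1.52% lower and 1.49% were DEGs. The difference was positive in 75 of 82 genes, with a median of 0.16 against 0.02 for all genes. This median moved to 0.06 and 0.05 after the 2 length corrections, to 0.008 after quantile normalization (0.03 for all genes), to 0.005 after rescaling to equal totals (-0.10 for all genes) and to -0.008 without the 4 samples of highest skeletal muscle markers. As the table stood, 19 of the 82 genes passed an unadjusted p under 0.05 (limma), a share near that of all genes (4042 of 15988). With sample weights, 34 were called higher, when 23.0% of all genes were. *Ndufa1* and *Atp5g1* had differences of 0.33 and 0.37 (limma adjusted p = 0.162 and 0.118). The groups overlapped in all but 4 genes, of which *Cox6a2*, *Cox7a1* and *Cox8b* were lower and *Ndufa10* higher in αERKO-DES. How many of all genes did not overlap was not counted. Relative to WT-veh, the median of the 82 genes was -0.02, -0.27, -0.21 and -0.47 in the 4 αERKO-DES samples, against -0.81, -1.05, -1.08 and -0.87 in WT-DES.

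The comparison of αERKO-DES with WT-DES and the interaction addressed whether the change after DES required ERα. Against WT-DES, 73 genes were up-regulated in αERKO-DES and 3 down-regulated, with a median of 0.70, when 37.8% of all genes were called higher and 36.2% lower. DEGs numbered 58, of which 55 were higher, against 53.4% of all genes. No overlap was seen for 68 genes above and 4 below, again without a count over all genes. *Ndufa1* was 4.62-fold higher (2.19, limma adjusted p = 3.27e-09), *Atp5g1* 3.09-fold (1.61, limma adjusted p = 6.27e-08) and *Uqcrq* 2.76-fold (1.46, limma adjusted p = 5.23e-07). The 3 genes lower in αERKO-DES were *Cox8b* (-4.66, limma adjusted p = 0.000344), *Cox6b2* (-1.38, limma adjusted p = 5.19e-05) and *Ndufa4l2* (-0.66, limma adjusted p = 0.00191). This comparison shares WT-DES with the main one. It was sensitive to scaling, with 22 of the 76 called genes changing sign in at least 1 alternative and 40 called higher after rescaling to equal totals (18.2% of all genes).

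**Figure D4:**
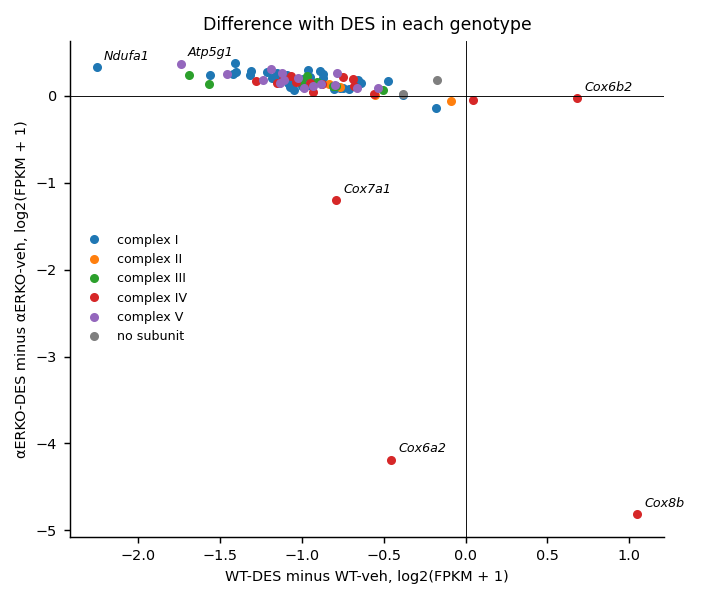
Log2 difference between DES and vehicle in αERKO (y axis) against the same in WT (x axis) for the 82 genes, coloured by complex; the samples of the 2 axes are different. Most points lie far to the left of 0 in WT, with a median of -0.95, and near 0 in αERKO, with a median of 0.16.

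The interaction tested the difference itself, as the DES effect in WT minus that in αERKO. It was called lower in 74 genes and higher in 2, with a median of -1.10, against 36.2% lower and 35.3% higher of all genes. Of the 82 genes, 71 passed the 1.5-fold limit as well, against 56.4% of all genes. *Ndufa1* had the lowest value (-2.58, SE 0.20, limma adjusted p = 7e-08), followed by *Atp5g1* (-2.11, SE 0.19, limma adjusted p = 3.38e-07) and *Uqcrq* (-1.93, SE 0.21, limma adjusted p = 2e-06). By complex, 34 of 35, 3 of 4, 8 of 8, 12 of 18 and 15 of 15 genes of complexes I to V were lower. *Cox8b* (5.86, SE 1.32, limma adjusted p = 0.00106) and *Cox6a2* (3.73, SE 1.36, limma adjusted p = 0.0227) were the 2 higher. After length correction 66 were lower (36.8% of all genes) and 4 higher, with a median of -0.55. In 14 of the 76 genes the sign changed in at least 1 alternative, *Atp5sl* among the named.

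The genes *Atp5s* and *Atp5sl*, which match by symbol but do not encode a subunit, were called lower in WT-DES but changed less than any complex. *Atp5s* was at 10.49, 10.69, 11.48 and 10.59 FPKM in WT-veh and at 8.13, 8.0, 8.35 and 7.73 in WT-DES, without overlap (-0.38). *Atp5sl* was at 24.06 to 27.54 and 21.81 to 24.51 FPKM (-0.17, SE 0.07, limma adjusted p = 0.0309). Both turned positive under rescaling, to as much as 0.14 and 0.39.

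The heart and muscle isoforms *Cox6a2*, *Cox7a1* and *Cox8b* varied widely between samples of the same group, *Cox7a1* in αERKO-DES excepted. *Cox6a2* was at 0.31, 0.00, 1.93 and 34.45 FPKM in WT-veh and at 0.59, 1.54, 2.41 and 1.81 in WT-DES. In αERKO it was at 2.43, 35.20, 57.33 and 24.85 with vehicle and at 0.41, 0.10, 0.10 and 0.00 with DES. The 4 high samples were WT-veh replicate 4 and αERKO-veh replicates 2, 3 and 4. *Cox8b* was at 10.47, 2.43, 75.36 and 104.34 FPKM in WT-veh and at 14.97, 43.20, 54.69 and 145.64 in WT-DES. In αERKO it was at 17.99, 93.07, 89.13 and 53.54 with vehicle and at 1.89, 0.52, 0.84 and 0.74 with DES, below every other sample. *Cox7a1* ranged from 16.17 to 83.57, 10.12 to 55.41, 34.40 to 74.07 and 21.06 to 26.62 FPKM in the 4 groups in that order.

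In αERKO-DES against αERKO-veh, *Cox8b* fell by 4.81 (SE 0.93, limma adjusted p = 0.0351) and *Cox6a2* by 4.19 (SE 0.96, limma adjusted p = 0.0403), with lowest and highest values of -5.32 and -4.55 for *Cox8b* and -5.05 and -3.69 for *Cox6a2* when 1 sample was left out. Neither was called without αERKO-veh replicate 2 or 4 or αERKO-DES replicate 1, 2 or 3, and 1 of them was called without αERKO-veh replicate 3. Without the 4 samples named above, which leaves 1 αERKO-veh sample, the differences were -3.29 and -1.59 and were not called. The 16 skeletal muscle markers, including myosins, troponins and parvalbumin, followed a like pattern. Averaged over the list, log2(FPKM + 1) was 2.30, 1.93, 3.10 and 5.94 in WT-veh, 3.47, 6.18, 6.73 and 5.88 in αERKO-veh, 1.33 to 2.21 in WT-DES and 1.73 to 2.17 in αERKO-DES. Their summed FPKM ranged from 750.5 to 2547, 806 to 3148, 49.6 to 360 and 601 to 869 in the same order. Against αERKO-veh, 11 of the 16 were down-regulated in αERKO-DES, and against WT-veh 8 were up-regulated in αERKO-veh. The sums in αERKO-DES came largely from *Acta1*, at 455.77 to 635.87 FPKM, while *Pvalb* was at 0.07 to 0.33 there. The lowest sums were those of WT-DES, where *Acta1* was at 24.89 to 235.03 FPKM.

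*Cox8b* is also a marker of brown fat. Both *Cox8b* and the adipose markers were lowest in αERKO-DES. After group means were subtracted, *Cox8b* had a Pearson r of 0.54 with the mean of the adipose markers over 16 samples. With the skeletal muscle markers r was 0.72. The WT-veh samples had the same order in *Cox8b* and in the adipose sum. In αERKO the order differed, as αERKO-veh replicate 3, with *Cox8b* at 89.13 FPKM, had the lowest adipose sum of its group. The 11 adipose markers summed to 273 to 1376 FPKM in WT-veh and 1138 to 2695 after DES, while in αERKO the sums were 158 to 1472 and, after DES, 26.5 to 82.0. In WT-DES against WT-veh 6 were up-regulated, and in αERKO-DES 6 were down-regulated against αERKO-veh and all 11 against WT-DES. *Ucp1*, the uncoupling protein of brown fat, was at 0.06 to 0.14 FPKM in αERKO-DES and reached 48.50 in WT-DES replicate 4, the sample with the highest *Cox8b*. The part of muscle or fat in the isoform values was not tested.

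Isoform shares do not change with a common factor on a sample, since both genes of a pair are read in the same sample. *Cox6b2* made up 2.34 to 2.84% of the summed FPKM of *Cox6b2* and *Cox6b1* in WT-veh and 6.89 to 9.43% in WT-DES, and 1.83 to 2.84% and 1.33 to 2.71% in the αERKO groups without and with DES. *Ndufa4l2* made up 1.57 to 2.11%, 3.80 to 4.55%, 1.20 to 2.27% and 1.06 to 1.66% of its pair with *Ndufa4* in the same order. *Atp5g1* made up 26.9 to 30.5%, 19.6 to 22.5%, 25.3 to 30.6% and 30.2 to 31.6% of its pair with *Atp5g3*. In these 3 pairs all WT-DES samples lay outside the range of the other 12.

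The log2 ratio differed between WT-DES and WT-veh by 1.75 for *Cox6b2* over *Cox6b1*, 1.20 for *Ndufa4l2* over *Ndufa4*, -0.61 for *Atp5g1* over *Atp5g3* and 0.35 for *Atp5g2* over *Atp5g3*. Each had p = 0.0286 in an exact two-sided permutation test over 70 arrangements, the smallest p that 4 samples against 4 allow. Over the 32 tests of 8 pairs in 4 comparisons the smallest adjusted p was 0.0703, so no ratio passed the threshold after adjustment. The ratio of *Cox4i2* to *Cox4i1* differed by 0.48 (exact permutation p = 0.0571). The differences for *Cox8b* over *Cox8a* (2.0, p = 0.200), *Cox6a2* over *Cox6a1* (0.69, p = 0.571) and *Cox7a1* over *Cox7a2* (0.33, p = 0.657) were within the spread of the samples in the same exact permutation test.

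**Figure D5:**
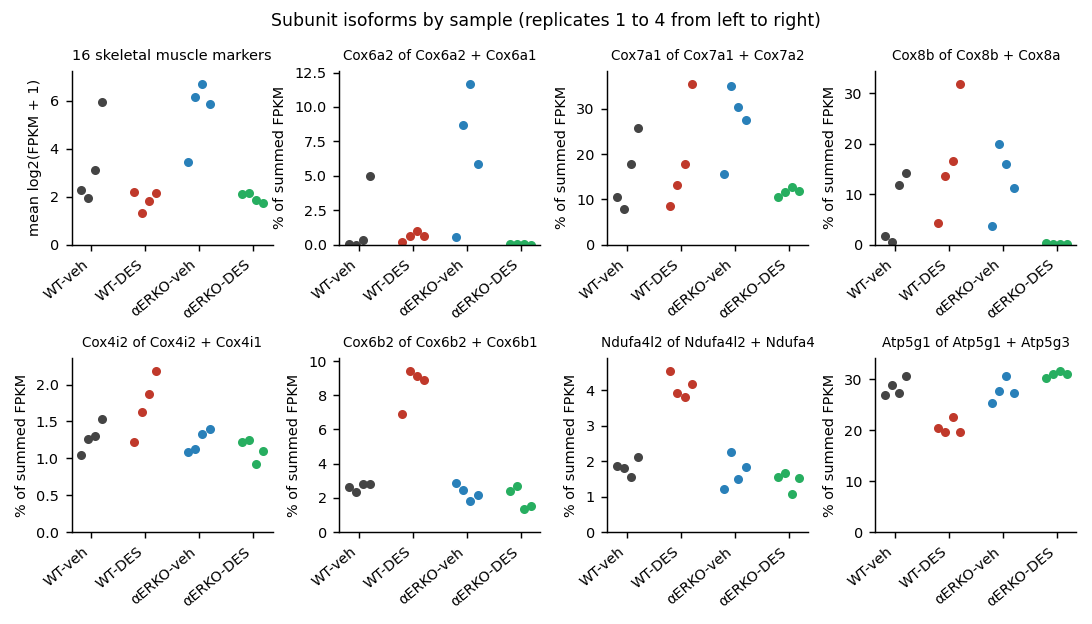
The first panel shows log2(FPKM + 1) averaged over the 16 skeletal muscle markers in each sample, and the others the share (%) of 1 gene in the summed FPKM of a pair of isoforms, by group with replicates 1 to 4 from left to right. *Cox6a2* is high in the samples with high muscle markers, while *Cox6b2*, *Ndufa4l2* and *Atp5g1* set WT-DES apart from the 12 other samples.

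The 82 genes also moved together within groups. After group means were subtracted, the correlation of each gene with the mean of the others over 16 samples had a median Pearson r of 0.86 (0.16 to 0.95), and exceeded 0.5 in 74 genes. This is a description only, as all points share the samples and their scaling.

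Other mitochondrial genes were read from lists of known function in the same fit. Assembly factors, which build the complexes but are not part of them, were down-regulated in 30 of 42 in WT-DES against WT-veh (37.3% of all genes) and up-regulated in none, with a median of -0.62, which moved to between -0.60 and -0.07 under other scalings. The largest change was that of *Cox17*, the copper chaperone of complex IV, from 274 ± 11.2 to 90.7 ± 10.8 FPKM (-1.59, SE 0.14, limma adjusted p = 8.77e-08). In αERKO-veh 20 were down-regulated against WT-veh (15.2% of all genes), and 30 were up-regulated in αERKO-DES against WT-DES (37.8% of all genes).

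Of the 13 subunits encoded by mitochondrial DNA, the table lists 2 under symbols taken here as those genes (*Ptgs2*, which shares a name with 1 of them, is listed apart). *Cox2* was at 1587.93 to 1686.23 FPKM in WT-veh and 641.45 to 822.36 in WT-DES, and *Cytb* at 1572.25 to 1709.00 and 598.64 to 792.16. Both were lower without overlap (-1.14 and -1.21, limma adjusted p = 4.77e-06 and 3.79e-06), but quantile normalization, which forces equal levels on the top ranks of every sample, turned them to 0.43 and 0.34. Neither was called in αERKO-veh against WT-veh (-0.31 and -0.30).

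Carriers and electron carriers fell in 11 of 13, with a median of -0.81 that stayed below 0 under every scaling. *Slc25a5*, an ADP/ATP carrier, had the largest change (-1.45, SE 0.12, limma adjusted p = 9.72e-08), while *Slc25a4*, the isoform of heart and muscle, fell by 0.34 but turned to as much as 0.50 under other scalings. Cytochrome c (*Cycs*) fell by 0.84 from a low listed level of 4.63 FPKM, and *Cyc1*, the cytochrome c1 of complex III, by 0.81. TCA cycle and pyruvate dehydrogenase genes fell in 13 of 17, with a smaller median of -0.41 that turned to 0.03 after quantile normalization and 0.15 after rescaling to equal totals, where 2 were lower and 7 higher. *Mdh2*, the mitochondrial malate dehydrogenase, fell most (-0.88). Of 16 glycolytic genes 5 were up-regulated and 6 down-regulated, shares near the 36.4% and 37.3% of all genes, with a median of -0.11 (0.45 after rescaling to equal totals). The largest change was a rise of the phosphofructokinase *Pfkp* (1.30, SE 0.24, limma adjusted p = 0.000221).

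Of 17 regulators of mitochondrial gene expression 5 were up-regulated and 7 down-regulated, again near the 36.4% and 37.3% of all genes, and 10 and 3 after rescaling to equal totals. *Ppargc1a*, the coactivator PGC-1α that promotes mitochondrial biogenesis, was at 0.38 to 0.56 FPKM in WT-veh and 1.74 to 2.33 in WT-DES, and so rose (0.97, SE 0.12, limma adjusted p = 3.1e-06) where the subunit genes fell. *Gabpa*, the DNA-binding subunit of GABP, also rose, by 0.58. *Esrra*, oestrogen-related receptor α, fell by 0.30 but turned to as much as 0.26 under other scalings, and the transcription factor *Myc* showed the largest change of the list, from 55.4 ± 10.3 to 23.6 ± 3.62 FPKM (-1.19, SE 0.12, limma adjusted p = 3.32e-07). *Nrf1*, nuclear respiratory factor 1, and *Tfam*, which packages and transcribes mitochondrial DNA, were not called and changed sign with scaling (-0.05 and -0.14, limma adjusted p = 0.546 and 0.0665). In αERKO-DES, *Ppargc1a* was at 0.24 to 0.54 FPKM and *Myc* at 43.09 to 48.63, outside the range of WT-DES in both cases.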

How the data were processed

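RNA-seq of 16 SV samples was read from 1 deposited table of FPKM values, which per the submitters' processing notes came from TopHat2 2.0.4 alignment to mm10 and Cufflinks 2.0.2. Per the study's methods, 126 nt paired-end reads from a HiSeq 2000 were kept by quality first. The annotation of the table and any scaling between libraries are not given in the sources used here, and FPKM hold no counts, so depth is unknown and no counting interval can be given.

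The 15988 genes whose group mean exceeded 1 FPKM somewhere were tested with limma 3.58.1 (R 4.3.3) on log2(FPKM + 1) in 1 model of all 16 samples, 4 groups of 4, with the variance allowed to follow expression and p-values adjusted over all of them by Benjamini-Hochberg. Fold changes on this scale understate the change of low genes. Calls needed an adjusted p no higher than 0.05, and a DEG also needed a 1.5-fold ratio of mean FPKM. The study itself had used Cuffdiff on reads. The fits were checked on simulated tables in which 200 genes changed. Isoform ratios were compared by exact permutation tests (scipy 1.17.1). Since nothing ties every sample to 1 animal, p-values measure only the spread between these samples, which may be technical. Replicate numbers were those of the labels.

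Transcript lengths, positions and copies came from GENCODE M21, with 22563 table genes matched by symbol and 1017 by synonym; copies were found with BLAST+ 2.17.0. In the length correction, each sample's lowess trend (span 0.3) of level on transcript length was subtracted. Genes were named by rule: the 3 highest and 3 lowest called in each of 5 comparisons, isoform pairs, the highest of each complex, core subunits, genes that are no subunit, 8 set genes of the pathway (*Ppargc1a*, *Tfam*, *Nrf1*, *Esrra*, *Gabpa*, *Cycs*, *Cyc1*, *Slc25a4*), the largest called change of each other list, and *Esr1*. The values of 1 gene are not reported here. Members and lists were chosen with earlier results of these data known. Alternatives covered the pseudocount (0.1), the FPKM minimum (none or 5), samples and weights in the model, the variance trend, 4 scalings, 2 length corrections, a replicate block, and leaving out samples.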

Additional observations from a re-analysis of the deposited data

Results flagged for a closer look

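Among 41 named genes in 4 groups each (164 tests by Dixon's ratio of a gap to the range of 4 samples), 4 values in 3 samples stood apart. Chance alone gives about 1 in 20, so this is fewer than chance would give. *Cox6a2* was at 34.45 FPKM in WT-veh replicate 4 and 0 to 1.93 in the other 3, and *Ndufa4l2* was at 14.52 in that same sample against 10.76 to 11.02. *Cox6b2* was at 13.91 in αERKO-veh replicate 1 against 8.6 to 9.23, and *Ndufs3* at 30.86 in αERKO-veh replicate 3 against 26.8 to 27.45.

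The effect of DES differed between WT and αERKO by the interaction term in limma, which was lower in 74 genes and higher in 2. The values were -2.58 for *Ndufa1*, -2.11 for *Atp5g1*, -1.93 for *Uqcrq* and -0.35 for *Atp5sl*, and 3.73 for *Cox6a2* and 5.86 for *Cox8b*. The skeletal muscle marker level of WT-veh replicate 4, 5.94, is given beside *Cox6a2* above, and its part was not tested.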

How the results depend on the processing

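Alternatives with other pseudocounts, FPKM minimums, variance models or sample sets moved few counts in WT-DES, while scaling and length corrections moved most. Values are numbers of the 82 genes. Rescaling without the top 20 genes is written the top-20 scaling, and leaving out the 4 samples of highest skeletal muscle markers, which leaves 1 αERKO-veh sample and few calls among all genes, the muscle exclusion. For WT-DES against WT-veh (1 higher, 69 DEGs), quantile normalization gave 4 higher and 24 DEGs, the top-20 scaling 5 and 35, length correction 2 and 36, the principal-transcript length 2 and 23, and equal totals 6 and 19. For αERKO-veh against WT-veh (0 higher, 63 lower, 5 DEGs), quantile normalization gave 2, 16 and 1, the top-20 scaling gave 3, 35 and 1, equal totals gave 3, 10 and 1, length 10 lower and 2 DEGs, principal length 4 and 0, median-ratio scaling 3 DEGs, the muscle exclusion 0 lower and 0 DEGs, and the FPKM minimum of 5 and sample weights 1 higher each. For αERKO-DES against αERKO-veh (0 higher, 2 lower and DEGs), sample weights gave 34 higher and 3 lower, no FPKM minimum and only the compared groups 1 lower and 1 DEG each, and quantile normalization and the muscle exclusion 0 and 0. For αERKO-DES against WT-DES (73 higher, 3 lower, 58 DEGs), quantile normalization gave 39, 13 and 12, equal totals 40, 8 and 13, the top-20 scaling 5 lower and 18 DEGs, and median-ratio, length and principal length 36, 30 and 24 DEGs. For the interaction (2 higher, 74 lower, 71 DEGs), quantile normalization gave 10, 44 and 31, equal totals 8, 47 and 27, the top-20 scaling 6 higher and 41 DEGs, length 4 and 40, and principal length 4 and 30. Calls among all genes differed between settings as well. With the principal-transcript length, 854 of 14434 genes were lower in αERKO-veh against WT-veh. In that comparison equal totals gave 495 of 15988 genes lower and quantile normalization 1409. For αERKO-DES against WT-DES, quantile normalization gave 6312 of 15988 genes higher and 5093 lower. The cause of these moves was not tested.

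Leaving out 1 sample gave 74 to 77 lower in WT-DES, 0 to 1 higher, 10 to 63 lower and 1 to 9 DEGs in αERKO-veh, 0 to 1 higher, 0 to 2 lower and 0 to 2 DEGs in αERKO-DES against αERKO-veh, and 1 to 3 higher in the interaction (1 without WT-veh replicate 2). In αERKO-veh the lowest count of DEGs was that without WT-veh replicate 4 or αERKO-veh replicate 2, and the highest that without αERKO-veh replicate 1. Under at least 1 alternative the sign turned in 14 of the 76 genes called in WT-DES, 6 of 63 in αERKO-veh, 22 of 76 against WT-DES and 14 of 76 in the interaction, and several are named with their values above. Among them, it turned for *Atp5sl* in WT-DES (0.25 top 20, 0.39 equal totals) and for *Atp5sl* in the interaction (0.19 and 0.35). The fit to only the compared groups cannot be made for the interaction.

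Replicate numbers of the labels did not pair the samples: residuals of same-numbered samples had correlations of -0.21 to 0.28 with a median of -0.016. A fit with the replicate number as a block gave 75 lower in WT-DES, 62 lower and 1 higher in αERKO-veh, 2 lower in αERKO-DES against αERKO-veh, 72 higher against WT-DES and 74 lower in the interaction. Without depth, counting error of low genes such as *Ppargc1a* cannot be judged, and the muscle exclusion, the principal-transcript length and the equal totals were chosen after seeing the data.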
